A study of Mus musculus with 11 samples.

Results

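The ADN tumors are 3 lung tumors of Gprc5a-/- mice, compared here with normal lung tissue taken from the same 3 animals, m335, m368 and m350. The members were chosen by the tumor tag in the sample names, and they make up 6 of the 11 libraries of the series. The other 5 libraries are 3 tumors tagged ADC and 2 further normal lungs. The tags ADN and ADC are used as the names give them. All 11 libraries come from mice that lack Gprc5a and that had received the tobacco carcinogen NNK by intraperitoneal injection at 50 mg/kg, 3 times a week for 8 weeks, so no wild-type and no unexposed lung enters any comparison. Tissue was collected 4 months after NNK from m335, 6 months from m368 and 7 months from m350. Each time point holds 1 of the mice, so mouse and time cannot be told apart. Libraries were made from polyadenylated RNA with an Ion Total RNA-Seq kit and read on an Ion Proton instrument. The question the pairing answers is which genes differ between a tumor and the lung it grew in.

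Gprc5a encodes an orphan receptor that retinoic acid induces, and it is most abundant in lung epithelium. Mice without it develop lung tumors with age, and NNK raises their number. NNK is activated by cytochrome P450 enzymes to products that alkylate DNA. Growth factor receptors such as that of EGF signal through the MAP kinase pathway, whose output genes include its own inhibitors. The alveolar surface is lined by type 2 cells, which make surfactant and renew the epithelium, and by flat type 1 cells, which exchange gas over a dense capillary bed. In bulk RNA, fewer cells of a type and less RNA per cell cannot be told apart.

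The 6 libraries held between 28601845 and 33489677 counts. The ribosomal precursor Rn45s took 7.29% to 19.2% of them. Gprc5a itself had 2, 18 and 12 counts in the normal lungs of m335, m368 and m350 and 6, 0 and 1 in the ADN tumors. It did not pass the filter on low counts over the 6 libraries, so it was not tested. Hemoglobin genes took 0.782% to 3.32% of the counts of the normal lungs and 0.124% to 0.544% of those of the tumors. The m335 pair stood apart in several ways. Skeletal muscle genes summed to 808 CPM, which are counts scaled to a common library size, in its normal lung, against 83.4 and 23.2 CPM in those of m368 and m350. Its tumor library held Xist, the RNA of the inactive X chromosome, at 16.7 CPM together with the Y-linked Ddx3y at 27.9 CPM, while its normal lung had 1.22 and 17.7 CPM on the same scale. In the normal lungs of m368 and m350, Xist stood at 199 and 190 CPM and Ddx3y at 0.0622 and 0 CPM. The ADC tumor of m335 also held both, Xist at 8.86 CPM and Ddx3y at 43.1 CPM. Whether the tumor libraries of m335 hold material of another animal was not tested. By Xist and Ddx3y the normal lung of m335 was male and those of m368 and m350 were female. Sex therefore cannot be told apart from mouse and time, and fits without m335 hold female mice only. Counts of list members are therefore also given without m335.

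Of 15188 genes tested, 1208 (7.95%) passed an adjusted p of 0.05 between ADN tumors and paired normal lungs, 461 higher (3.04%) and 747 lower (4.92%). The median log2 fold change over all genes tested was -0.02. Of the genes tested, 3295 were higher in 3 of 3 pairs, 3781 were lower in 3 of 3 pairs and 8112 were mixed in direction. Each of the 1208 genes moved in the same direction in 3 of 3 pairs. With 3 pairs and mouse as a block, a mixed gene can hardly pass, so this is no separate support. At a fold change of at least 4, 196 genes were higher (1.29%) and 319 lower (2.1%). All 3 tumors lay above all 3 normal lungs for 2035 of the genes tested (13.4%) and below them for 2404 (15.8%). Groups that do not overlap are therefore common in these data. Without m335, 226 genes passed, without m350 545, and without m368 1744. With library totals in place of TMM scaling, 353 were higher and 1151 lower, and the median over all genes shifted to -0.25. In all, 190 genes passed without each mouse in turn, 90 of them higher and 100 lower. Across all genes, the tumor minus normal differences of m335 and m350 correlated at r = 0.575, those of m335 and m368 at 0.447 and those of m368 and m350 at 0.339. These correlations describe genes, which are not independent replicates.

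**Figure D1:**
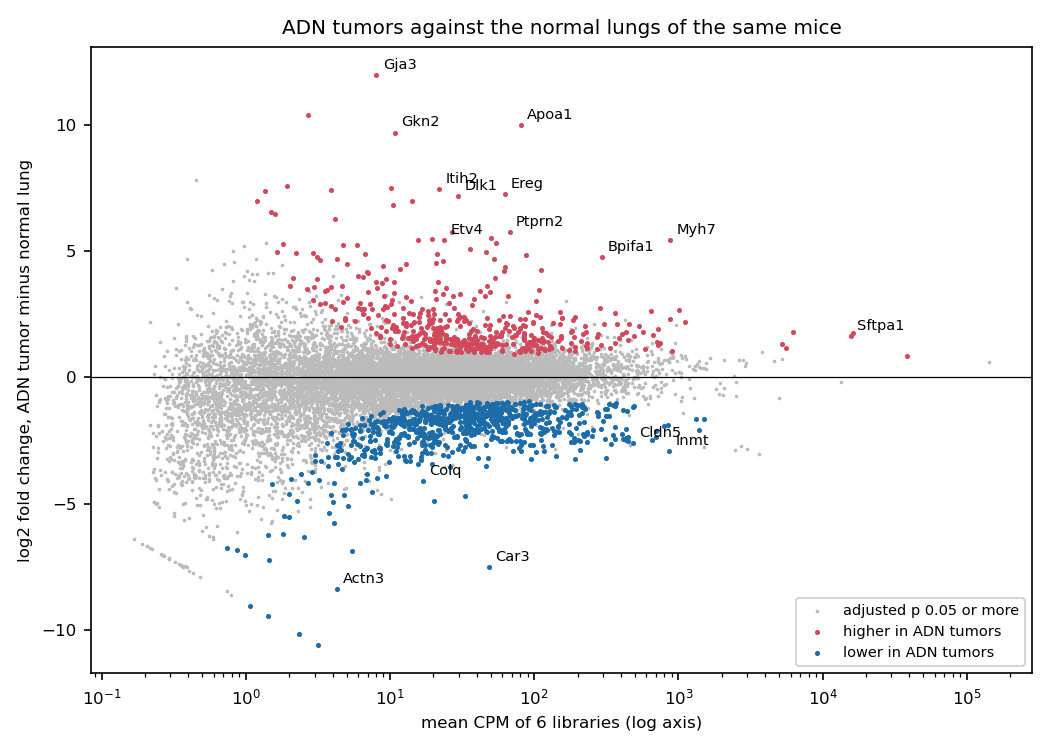
Fitted log2 fold change of each gene, ADN tumor minus normal lung (vertical), against its mean CPM over the 6 libraries (horizontal, log axis). Red points are the 461 genes higher and blue points the 747 genes lower at an adjusted p under 0.05. Gray points did not pass. Fitted values of genes at 0 counts in one group, such as Gja3, depend on a prior count and are no measure of size.

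**Figure D2:**
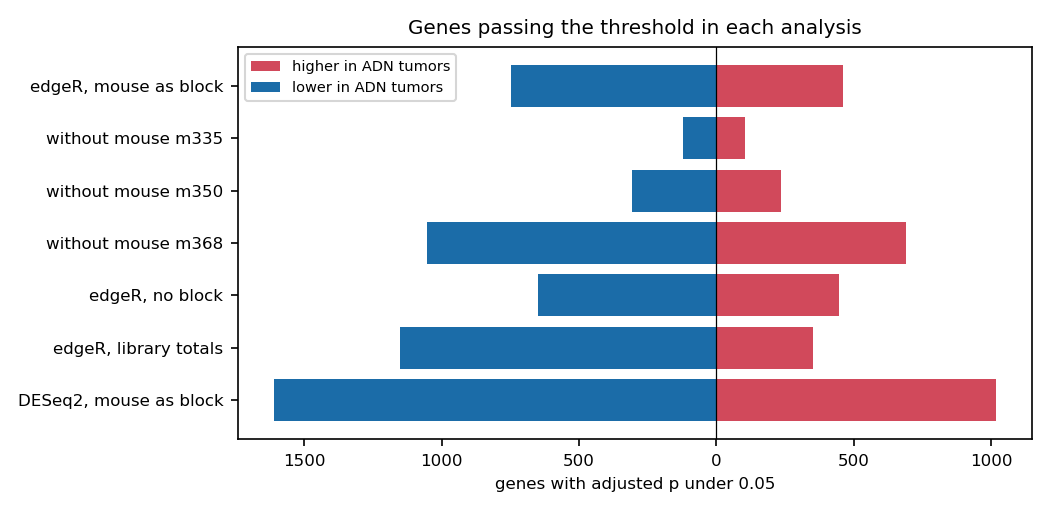
Number of genes with an adjusted p under 0.05 in the main analysis and in 6 alternatives, higher in ADN tumors to the right (red) and lower to the left (blue). The counts run from 226 genes without m335 to 2629 genes with DESeq2.

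In the following, levels are CPM on the scale of the 6 libraries, in the order m335, m368, m350, first the normal lungs and then the ADN tumors. Fold changes are fitted log2 values, ADN tumor minus normal lung, with their standard error, and p-values are edgeR quasi-likelihood values adjusted over all genes tested. The p-values rest on the spread among these 3 mice, moderated by that of other genes. The prior had a median of 5.21 degrees of freedom, against 2 residual ones. Standard errors were derived from the fold change and the F value of the test. Of 177 named genes that passed, 117 did not pass without m335 (adjusted p 0.0512 to 0.318), 75 without m350 (0.0507 to 0.277) and 17 without m368 (0.0508 to 0.115, with Plin1 below the filter there). A gene is said to pass without m335 where it did. Shares of a list that rose or fell are to be read against 3.04% and 4.92% of all genes tested.

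Where the mean over the 6 libraries reached 5 CPM, the largest rises were those of a lens connexin, a pair of liver or stomach secretory proteins, a membrane protease and an EGF receptor ligand. Gja3, which encodes a gap junction protein best known from the lens, had no count in any of the 3 normal lungs and 18, 26.8 and 3.57 CPM in the tumors. Over the group this was at least a 550-fold rise, taking 3 counts as the floor. Gkn2, a stomach mucosal protein, had 0, 0.0305 and 0.0303 CPM in normal lung and 11.1, 47.1 and 6.63 CPM in the tumors. Its 2 counts against 1817 gave a ratio of 1090 with an exact 95% interval of 301 to 8990, which covers counting error only. Apoa1, the main protein of high-density lipoprotein, had 0.194, 0.122 and 0.0303 CPM in normal lung and 96.7, 387 and 3.39 CPM in the tumors (9.99 ± 0.74, adjusted p = 0.00525). On mm10, as the deposited table places them, Gja3 lies at chr14:57034460-57058030, Gkn2 at chr6:87373365-87379494 and Apoa1 at chr9:46228630-46230469. The tumor of m350 had the lowest level of all these genes among the tumors, and each tumor was above every normal lung.

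Rhbdl2, a rhomboid protease that cleaves membrane proteins, had 0, 0.519 and 0 CPM in normal lung and 17.9, 36.2 and 6.16 CPM in the tumors (7.49 ± 0.90, adjusted p = 0.00805). Itih2, a serum protein that carries hyaluronan, went from 0.25, 0.305 and 0.121 CPM to 72.6, 47.3 and 11.6 CPM (7.44 ± 0.43, adjusted p = 0.00138). Dlk1, an imprinted membrane protein of fetal tissues, went from 0.0833, 0.824 and 0.243 CPM to 63.3, 103 and 10.4 CPM (7.17 ± 0.73, adjusted p = 0.00715). The groups did not overlap for any of these genes. The 12 largest rises also included Ereg (7.26), Slc35f1 (6.99), the neuropeptide Adcyap1 (6.81), the dense core vesicle protein Ptprn2 (5.75) and Cldn2 (5.50). Cldn2, a claudin that forms cation pores in tight junctions, went from 1.25, 4.61 and 1.34 CPM to 63.9, 156 and 73.9 CPM. Ptprn2 overlaps a gene on the opposite strand, and whether the counting used strand is not given in the sources used here. Of the 12, 10 were also called without m335, and 12 each without m368 and m350. Adcyap1 did not pass without m335.

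**Figure D3:**
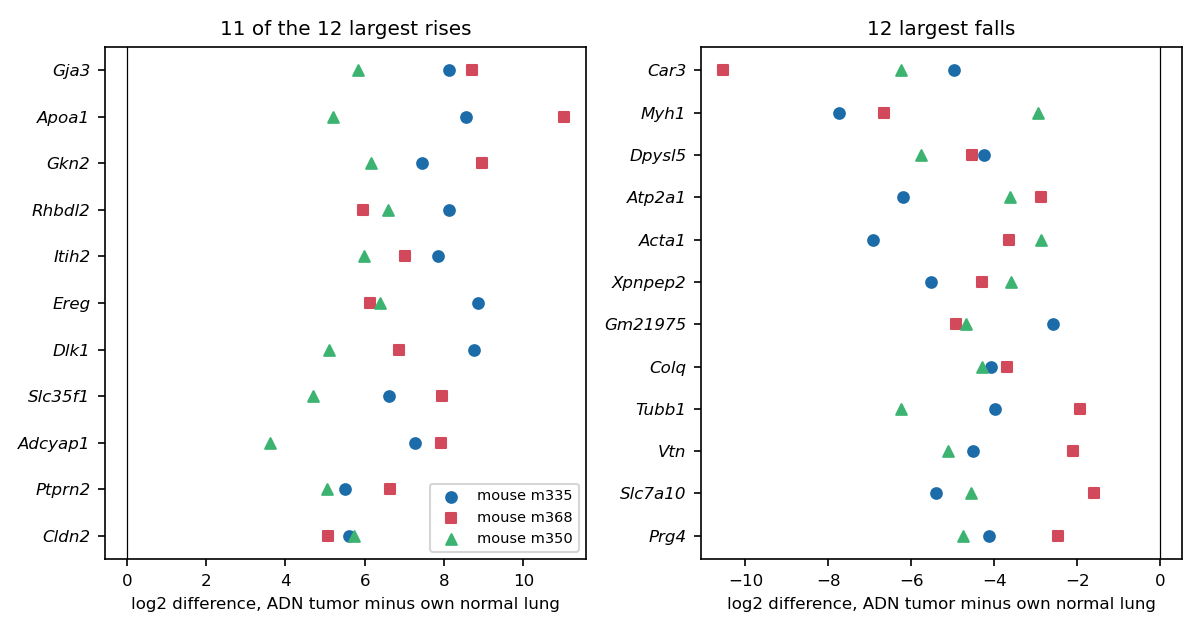
Log2 difference between the ADN tumor and the normal lung of each mouse for 11 of the 12 largest rises (left) and the 12 largest falls (right), with a prior count added to both libraries. Every point of a rise lies right of 0 and every point of a fall left of 0, as the choice of these genes required. Apoa1 and Car3 differ most in m368.

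Promoters of called genes were searched for short motifs, since many of these genes rose together from near 0. The RefSeq promoter windows (GRCm38.p6, 250 bases before to 50 after each start) matched 342 of the genes higher, 511 of the genes lower and 11553 of the genes tested. The letters TGANTCA, which the AP-1 family of Fos and Jun proteins binds and which read the same on both strands, stood in 11.0% of 445 windows of genes that were higher and in 8.26% of 714 windows of genes that were lower. They stood in 5.68% of the 14646 windows of all genes tested and in 7.81% of all 32851 windows. An ETS motif, CCGGAAGT, searched on both strands, stood in 2.47%, 0.7%, 6.96% and 3.89% of the same windows in the same order, and another ETS core, CAGGAAGT, in 4.04%, 4.76%, 3.54% and 3.33%. A match is a description of these letters and not a site of binding. Named genes that fell had TGANTCA matches too, among them Myh1 (-6.86) at -196 and Zeb2 (-1.37) at -189 and -132 from the same start. The windows below are all of genes that rose. They are shown because 3 of the genes are among the largest rises with a match among the named genes and Cldn4 has 2 matches. They are, on chromosome 2, Itih2 at chr2:10130634-10130933 on the minus strand and Bpifa1 at chr2:154142630-154142929 on the plus strand. Rhbdl2 is given at its second start, chr4:123813381-123813680 on the plus strand, and Cldn4 at chr5:134946885-134947184 on the minus strand. Each runs 5′ to 3′ with the TGANTCA match in capitals.
Itih2: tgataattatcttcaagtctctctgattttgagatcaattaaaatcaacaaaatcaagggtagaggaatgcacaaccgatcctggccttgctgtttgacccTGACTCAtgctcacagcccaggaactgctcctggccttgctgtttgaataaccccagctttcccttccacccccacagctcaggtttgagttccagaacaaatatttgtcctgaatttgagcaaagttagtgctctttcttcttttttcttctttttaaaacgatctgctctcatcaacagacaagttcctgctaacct
Bpifa1: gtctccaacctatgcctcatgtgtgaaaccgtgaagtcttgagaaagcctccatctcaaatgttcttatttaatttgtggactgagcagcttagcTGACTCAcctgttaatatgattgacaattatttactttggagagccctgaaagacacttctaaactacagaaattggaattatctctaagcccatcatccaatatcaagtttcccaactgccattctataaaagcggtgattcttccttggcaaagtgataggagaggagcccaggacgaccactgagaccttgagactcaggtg
Rhbdl2: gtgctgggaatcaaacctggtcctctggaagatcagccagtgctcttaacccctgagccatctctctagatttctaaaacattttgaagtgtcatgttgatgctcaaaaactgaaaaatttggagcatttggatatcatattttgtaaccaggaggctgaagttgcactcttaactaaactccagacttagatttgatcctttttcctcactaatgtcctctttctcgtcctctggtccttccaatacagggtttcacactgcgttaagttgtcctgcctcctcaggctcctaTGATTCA
Cldn4: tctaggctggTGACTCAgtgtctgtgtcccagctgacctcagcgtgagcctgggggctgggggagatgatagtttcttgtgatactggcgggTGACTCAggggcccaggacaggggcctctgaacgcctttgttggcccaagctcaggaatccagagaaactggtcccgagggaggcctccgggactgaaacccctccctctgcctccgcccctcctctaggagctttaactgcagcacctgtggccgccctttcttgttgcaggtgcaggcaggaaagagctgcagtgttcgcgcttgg

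Counted from the start as base 1, the match begins at -149 in Itih2, -155 in Bpifa1 and 44 in Rhbdl2. In Cldn4 the matches begin at -240 and -158. The first start of Rhbdl2 has none.

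Some genes for EGF receptor ligands and for output and feedback of the MAP kinase pathway were higher. Of 16 genes tested for EGF receptor ligands and ERBB receptors, 3 rose (18.8%), and the median was 0.57. All 3 are ligands. Ereg (epiregulin) went from 0.5, 0.916 and 0.425 CPM to 261, 69.1 and 40.7 CPM (7.26 ± 0.66, adjusted p = 0.00596). Areg (amphiregulin) went from 11.5, 5.47 and 4.73 CPM to 129, 50.7 and 29.4 CPM (3.12 ± 0.28, adjusted p = 0.00596). Tgfa went from 16.7, 15.3 and 12.1 CPM to 55.9, 29.1 and 42.8 CPM (1.5 ± 0.28, adjusted p = 0.0221). For each ligand all 3 tumors lay above all 3 normal lungs, and the tumor of m335 had the highest level. Ereg and Areg passed without each mouse in turn, and Tgfa did not pass without m335 or without m350.

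Of 19 MAP kinase output and feedback genes tested, 6 rose (31.6%), and the median was 1.16. Etv4, a transcription factor induced by ERK, went from 2.08, 0.611 and 0.637 CPM to 63.2, 54.9 and 20.7 CPM (5.44 ± 0.42, adjusted p = 0.00446). Spred1, an inhibitor of the pathway, went from 41.5, 50 and 55.8 CPM to 219, 264 and 183 CPM (2.17 ± 0.27). Dusp4, a phosphatase that turns ERK off, rose by 2.15 ± 0.41 and the inhibitor Spry2 by 1.59 ± 0.24. Groups did not overlap for any of the 4. Without m335, 2 genes of the list passed, Etv4 and Spred1, without m350 5 and without m368 6. Dusp6, another ERK phosphatase, had 154, 82 and 109 CPM in normal lung and 573, 167 and 179 CPM in the tumors (1.21 ± 0.30, adjusted p = 0.0559) and missed the threshold. The immediate early genes, which acute signals through the same kinases switch on, were lower where they passed. Of 23 tested, 4 fell (17.4%) with a median of -0.35, Klf2 (-2.18), Dusp1 (-1.49), Jun (-1.40) and Atf3 (-1.14). No gene of that list passed as lower without m335.

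The tumors held surfactant transcripts at higher levels than the lungs around them. Of 20 alveolar type 2 cell genes, 8 rose (40%), 1 fell (5%), and the median was 0.72. Sftpb, a surfactant protein, went from 8010, 5910 and 7540 CPM to 30300, 29500 and 15400 CPM (1.76 ± 0.29, adjusted p = 0.0156). Sftpa1 went from 8550, 8280 and 6240 CPM to 24600, 26200 and 20000 CPM (1.62 ± 0.20, adjusted p = 0.00805). Sftpc, the protein specific to type 2 cells, went from 29100, 21400 and 31600 CPM to 57700, 36800 and 54300 CPM (0.85 ± 0.19, adjusted p = 0.0417). No gene of the list passed as higher without m335, 1 did without m350 (Sftpb) and 8 without m368. Sftpc lost its call without any 1 mouse and with library totals as the scale. Nkx2-1, the transcription factor that defines lung epithelium, had 165, 113 and 120 CPM in normal lung and 237, 110 and 203 CPM in the tumors (0.42 ± 0.26, adjusted p = 0.405), with overlapping groups.

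Of 20 genes of alveolar type 1 cells tested, 7 fell (35%), and the median was -0.91. The list's summed level was 11000, 7340 and 7840 CPM in the normal lungs of m335, m368 and m350 and 6210, 8760 and 5810 CPM in the tumors, so it was higher in the tumor of m368 than in its normal lung. At an unadjusted p under 0.05, 3 of the list were higher and 11 lower, and DESeq2 called 2 higher and 9 lower. Cav1, which forms caveolae in type 1 cells and in endothelium, went from 554, 842 and 835 CPM to 91.3, 176 and 183 CPM (-2.35 ± 0.25). Rtkn2 fell by 2.25 and Hopx, a type 1 cell transcription cofactor, by 1.51 on the log2 scale. Hopx had 500, 297 and 427 CPM in normal lung and 110, 130 and 190 CPM in the tumors. Ager, the most abundant type 1 cell marker, had 3290, 1780 and 2000 CPM in normal lung and 1580, 1490 and 1280 CPM in the tumors (-0.65 ± 0.25, adjusted p = 0.176). Its groups did not overlap, but the tumor of m335 was close to the normal lung of m368. Without m335 1 type 1 cell gene passed, Cav1, and without m350 3.

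Genes of the keratin 8 transitional state, an intermediate between type 2 and type 1 cells described after lung injury, were higher in 6 of 15 (40%), with a median of 1.34. Clu (clusterin) went from 464, 390 and 318 CPM to 2300, 2020 and 1140 CPM (2.17 ± 0.25). Cldn4 went from 4.8, 5.4 and 1.88 CPM to 21.9, 77.8 and 26.9 CPM (3.29 ± 0.41). Areg and Ereg belong to this list too. The tumor of m368 had the highest Cldn4. Without m335, 5 of the list passed, Clu and Cldn4 among them, and 6 each without m350 and m368.

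Lung lineage transcription factors were higher in 9 of 20 (45%) and lower in 1 (5%), with a median of 1.46. Elf5, an ETS factor of secretory and distal lung epithelium, went from 23.8, 18.6 and 14 CPM to 110, 121 and 75.8 CPM (2.45 ± 0.24, adjusted p = 0.00596). Cebpa, which drives type 2 cell maturation, went from 235, 235 and 290 CPM to 1060, 969 and 631 CPM (1.78 ± 0.30). Tbx4, a factor of lung mesenchyme, was the gene that fell, from 74, 53.6 and 62.7 CPM to 30.2, 16.3 and 24.3 CPM. Only Elf5 of the list passed without m335, and 6 passed without m350.

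Some genes of gastric, intestinal and hepatic endoderm were higher. Of 22 genes listed, 13 passed the filter on low counts, and 5 of these rose (38.5%). They were Apoa1, Gkn2, Hnf4a, the fetal serum protein Afp and Alb. Hnf4a, a liver and gut transcription factor that normal lung hardly expresses, went from 0.416, 0.611 and 0.182 CPM to 10.7, 23.7 and 4.59 CPM (4.88 ± 0.45, adjusted p = 0.00596). It overlaps an antisense gene. Afp went from 1.25, 2.44 and 1.97 CPM to 18.1, 26.2 and 13.9 CPM (3.36 ± 0.37). The median of the 13 was -0.16, and the medians within the pairs of m335, m368 and m350 were 1.38, 1.36 and 0.63. The sign of the fitted median turned with the fit: it was 2.09 without m335, 0.02 without m368, 0.32 without m350 and 0.63 without the mouse block. Without m335, 4 passed, Apoa1, Gkn2, Hnf4a and Afp, and 5 each without m350 and m368.

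Junction genes changed in both directions. Of 14 connexins and related genes tested, 6 rose (42.9%) and 3 fell (21.4%), with a median of 0.71. Those that rose are connexins of epithelia and lens, among them Gja3, Gjb1, Gjb2 and Gjb6, and the 3 that fell are Gja4, Gja5 and Gjc1, which endothelium and smooth muscle use. Gjb1, the liver connexin, went from 14, 14.4 and 16.5 CPM to 94.4, 96.8 and 48.2 CPM (2.35 ± 0.32, adjusted p = 0.00957). Gjb2, a connexin of the inner ear and skin, went from 3.89, 4.52 and 3.67 CPM to 22.5, 22.2 and 16.7 CPM (2.34 ± 0.31). Without m335, 2 connexins passed as higher, Gja3 among them, and without m350 5. Of 18 claudins and tight junction genes, 5 rose (27.8%) and 2 fell (11.1%). Cldn5, the claudin of endothelium, was one of the latter, from 1130, 523 and 847 CPM to 128, 117 and 145 CPM (-2.61 ± 0.29). Cldn15 fell by 2.75 on the log2 scale. Cldn2, Cldn4 and Cldn5 passed without each mouse in turn.

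Airway genes differed between the mice. Of 14 club cell genes tested, 4 rose (28.6%). All 4 are secreted host defense proteins. Bpifa1, an antimicrobial protein of upper airways, went from 38.9, 12.7 and 8.47 CPM to 1150, 325 and 222 CPM (4.76 ± 0.27, adjusted p = 0.00138). Reg3g, a lectin that kills bacteria, went from 1.78, 0.763 and 0.546 CPM to 90.6, 24.5 and 7.84 CPM (4.90 ± 0.44). Bpifb1 rose by 4.39 and Scgb3a1 by 3.54. Of these, 3 passed without m335 and all 4 without m350 and without m368. Scgb1a1, the protein that defines club cells, had 5250, 4730 and 1760 CPM in normal lung and 329, 130 and 9670 CPM in the tumors (-3.03 ± 1.86, adjusted p = 0.406), lower in m335 and m368 and higher in m350. Without m350, 4 genes of the list passed as lower.

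No ciliated cell gene of 19 passed with edgeR, with 1 higher and 1 lower at an unadjusted p under 0.05, and DESeq2 called 2 higher and 1 lower. The pair medians were 0.87 in m335, -1.54 in m368 and 3.12 in m350. Foxj1, the master factor of motile cilia, had 31.1, 22.4 and 11.8 CPM in normal lung and 37.7, 4.69 and 78.5 CPM in the tumors (0.28 ± 0.96, adjusted p = 0.908), and its sign turned without m350 (-0.97). Of 11 mucous cell genes tested, 1 rose (9.09%), the gel mucin Muc5b, from 3.89, 4.64 and 0.728 CPM to 41.7, 20.1 and 58.3 CPM (3.80 ± 0.82, adjusted p = 0.0429). It did not pass without m335. The median of the 11 was 2.44, with 6 higher and 1 lower at an unadjusted p under 0.05, and DESeq2 called 7 higher. Of 7 basal cell genes tested, Krt15 rose (3.77 ± 0.57), with overlapping groups. Of 10 neuroendocrine and dense core vesicle genes tested, Ptprn2 and Adcyap1 rose (20%) while Cpe fell (10%, -2.29), and the median was -1.82. Krt15, Adcyap1 and Cpe did not pass without m335.

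**Figure D4:**
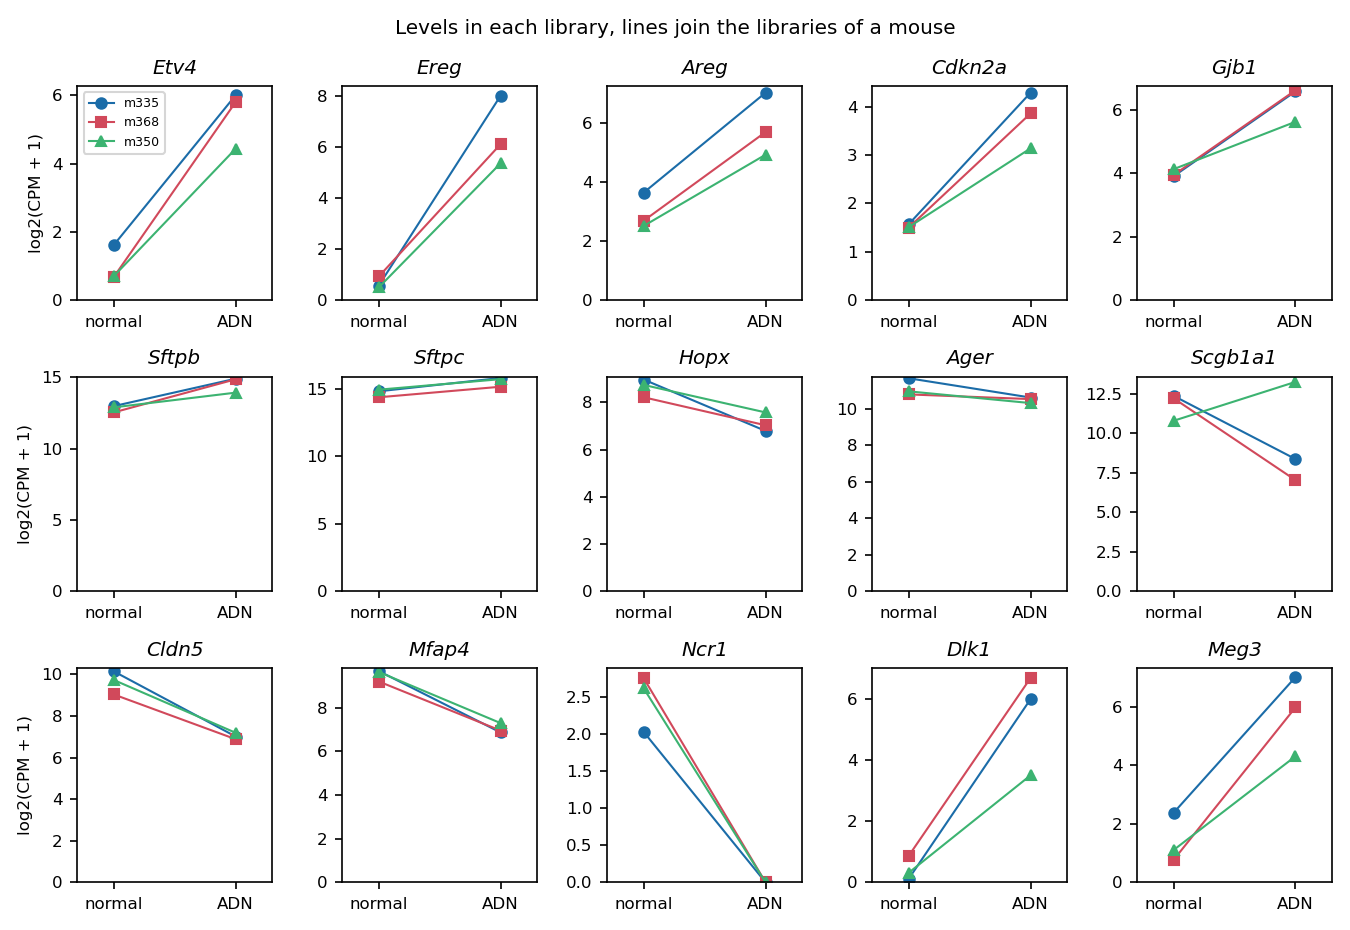
Levels of 15 genes as log2(CPM + 1), normal lung on the left and ADN tumor on the right of each panel, with a line for each mouse. The lines of Etv4, Ereg, Areg, Cdkn2a, Gjb1, Dlk1 and Meg3 all rise and those of Cldn5, Mfap4 and Ncr1 all fall, while Scgb1a1 rises in m350 and falls in the other mice.

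Endothelial genes were the marker group with the largest share lower. Of 26 tested, 19 fell (73.1%), with a median of -1.98, and their summed level was 7460 to 10500 CPM in the normal lungs and 2090 to 2370 CPM in the tumors. Tek, the angiopoietin receptor, went from 147, 172 and 246 CPM to 27.2, 30.9 and 43 CPM (-2.48 ± 0.24). S1pr1, a sphingolipid receptor that stabilizes vessels, went from 433, 270 and 313 CPM to 89.1, 49.1 and 50.2 CPM (-2.46 ± 0.25). Pecam1 fell by 1.96 and Ptprb by 2.27 on the log2 scale. All 3 tumors lay below all 3 normal lungs for each of these genes, as they did for 15.8% of all genes tested. The count was 11 without m335, among them Tek, S1pr1 and Ptprb, 11 without m350 and 20 without m368. Vegfa, the main endothelial growth factor, which alveolar epithelium makes in normal lung, fell as well, from 632, 350 and 400 CPM to 115, 114 and 184 CPM (-1.73 ± 0.32, adjusted p = 0.0209), but it did not pass without m335 or without m350. Of 8 lymphatic endothelial genes, 2 fell (25%), Lyve1 (-1.66) and Flt4 (-1.54), neither of them without m335 or without m350.

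Fibroblast genes fell in 10 of 22 (45.5%), with a median of -1.64 and a summed level of 4700 to 6270 CPM in normal lung and 2100 to 2490 CPM in the tumors. Inmt, a methyltransferase of alveolar fibroblasts, went from 1790, 1190 and 1590 CPM to 165, 240 and 202 CPM (-2.91 ± 0.30). Mfap4, an elastic fiber protein, went from 812, 583 and 789 CPM to 115, 122 and 155 CPM (-2.47 ± 0.26). Col13a1 fell by 2.85 and Pdgfra, the receptor that marks lung fibroblasts, by 1.74. The count was 3 without m335 (Inmt, Mfap4 and Col13a1), 8 without m350 and 12 without m368. Of 17 smooth muscle and pericyte genes, 3 fell (17.6%), Cox4i2 (-1.79), Gucy1a3 (-1.51) and Notch3 (-1.23), and none of them without m335. Mesothelial genes, of the lining on the lung surface, fell in 5 of 13 (38.5%), among them Upk3b, from 101, 66.1 and 51.4 CPM to 5.74, 5.52 and 14.4 CPM (-3.19 ± 0.49), and Nkain4 (-3.27 ± 0.51). Only Nkain4 passed without m335.

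The 12 largest falls were led by Car3, a carbonic anhydrase of fat and slow muscle, at 18.9, 257 and 13.2 CPM in normal lung and 0.537, 0.108 and 0.109 CPM in the tumors (-7.52 ± 1.14, adjusted p = 0.0157). Colq, the collagen tail of acetylcholinesterase, went from 56.4, 10.6 and 29.1 CPM to 3.29, 0.757 and 1.42 CPM (-4.09 ± 0.31, adjusted p = 0.00436). Dpysl5, a cytosolic protein of growing neurons, fell by 5.10 and Xpnpep2, a membrane aminopeptidase, by 4.54. The others were Myh1 (-6.86), Atp2a1 (-4.90), Acta1 (-4.70), Gm21975 (-4.17), Tubb1 (-4.07), Vtn (-3.97), Slc7a10 (-3.92) and Prg4 (-3.84). Myh1, Atp2a1 and Acta1 are genes of skeletal muscle, and the groups overlapped for Atp2a1. Acta1 had 172, 21.6 and 3.37 CPM in normal lung and 1.34, 1.66 and 0.401 CPM in the tumors, so its level spread more among the normal lungs than among the tumors. Of the 12, 6 were also called without m335, 11 without m368 and 9 without m350, and 4 of them (Car3, Dpysl5, Xpnpep2 and Colq) passed without each mouse in turn. Atp2a1, Slc7a10 and Prg4 overlap a gene on the opposite strand.

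Of 13 skeletal muscle genes tested, 5 fell (38.5%), with a median of -4.10. Actn3, a protein of fast muscle fibers, had 912 counts over the normal lungs and 2 over the tumors, 381 times as many per library size (exact 95% interval 105 to 3150). The list's summed level was 808, 83.4 and 23.2 CPM in the normal lungs and 14.6, 11.2 and 8.42 CPM in the tumors, so the normal lungs differed from each other by more than the lowest of them did from the tumors. Without m335, 1 gene of the list passed. Adipocyte genes fell in 3 of 11 (27.3%), Car3, Slc7a10 and Plin1. The summed level of the adipocyte list was 387, 1240 and 436 CPM in the normal lungs and 332, 2650 and 363 CPM in the tumors. It was thus higher in the tumor of m368 than in its normal lung. Plin1, which coats fat droplets, had 0.111, 21.5 and 1.34 CPM in normal lung and 0, 1.05 and 0 CPM in the tumors, with overlapping groups. Without m335, 3 adipocyte genes were lower. The part that muscle or fat tissue in the normal pieces played in these falls was not tested.

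Of 10 cardiac muscle genes tested, 2 rose (20%), the myosin heavy chains Myh7 and Myh6. Myh7, the slow myosin of heart and muscle, went from 104, 23.5 and 17.3 CPM to 1790, 2530 and 770 CPM (5.44 ± 0.58, adjusted p = 0.00719). Myh6 went from 0.916, 0.397 and 0.152 CPM to 11.2, 11.7 and 5.65 CPM (4.49 ± 0.56). Both passed without each mouse in turn, and all tumors were above all normal lungs. The median of the 10 was -1.57, and 2 were lower both at an unadjusted p under 0.05 and by DESeq2. Myh7 overlaps the antisense RNA Mhrt, and the genes share long stretches of like sequence, so reads could be split between them.

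Of 14 genes of natural killer and cytotoxic cells, 8 fell (57.1%), with a median of -3.17. Their summed level was 152 to 236 CPM in normal lung and 28.8 to 38.7 CPM in the tumors. Ncr1, an activating receptor specific to natural killer cells, had 3.08, 5.74 and 5.13 CPM in normal lung and no count in the tumors, at least a 130-fold fall. Ccl5, a chemokine of cytotoxic lymphocytes, went from 70.6, 52.9 and 76.7 CPM to 7.59, 10.3 and 12.6 CPM (-2.73 ± 0.28). Gzmb, a protease that kills target cells, fell by 3.52 and Prf1, which opens pores for it, by 3.13. The count was 3 without m335, Ncr1 and Ccl5 among them, 3 without m350 and 8 without m368.

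Of 19 T cell genes, 3 fell (15.8%), Cd247 (-1.50), Lck (-1.56) and Tcf7 (-1.49), and none passed without m335. The median of the list was -1.49, 15 were lower at an unadjusted p under 0.05, and DESeq2 called 12 lower. Of 18 B and plasma cell genes, 3 fell (16.7%), Cd79a (-1.73), Cd22 (-1.33) and Blk (-2.33), with 1 gene lower without m335. Sdc1, which marks plasma cells but also epithelium, rose from 498, 365 and 371 CPM to 1350, 849 and 849 CPM (1.28 ± 0.23). Neutrophil genes fell in 4 of 11 (36.4%), among them S100a9, from 28.1, 82.6 and 75.8 CPM to 3.59, 10.6 and 16.6 CPM (-2.70 ± 0.28), which passed without each mouse and was the only one lower without m335. Ltf (lactoferrin), a neutrophil granule protein that airway epithelium also secretes, moved the other way, from 11.7, 2.72 and 2.18 CPM to 373, 71.9 and 60.8 CPM (4.84 ± 0.27, adjusted p = 0.00138), and passed without each mouse. Mast cell genes fell in 4 of 8 (50%), among them Kit (-2.15), which passed without each mouse and alone without m335, and Gata2 (-2.26). Tpsb2, a mast cell tryptase, had 196 counts over the normal lungs and 1 over the tumors, 164 times as many per library size (exact 95% interval 29 to 6500). Hdc, which makes histamine, rose from 138, 238 and 184 CPM to 612, 884 and 272 CPM (1.55 ± 0.36, adjusted p = 0.0443), but not without m335 or without m368.

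Platelet genes fell in 5 of 12 (41.7%), among them Vwf (-2.45), which endothelium also makes and which passed without each mouse and alone without m335, and Itga2b (-2.90). Of 12 erythrocyte genes tested, Tal1 fell (-1.95), but not without m335. The median of the 12 was -2.81, and 10 were lower at an unadjusted p under 0.05. DESeq2 called 5 lower, and 9 passed as lower without m368. Of 19 alveolar macrophage genes, Ear1 rose (1.22 ± 0.27) with overlapping groups, which is 5.26% against 3.04% of all genes. It did not pass without any 1 of the mice or with library totals. Of 18 genes of monocytes and other macrophages Cd14 rose (1.59) while Ace (-1.89) and Treml4 (-2.66) fell, none of them without m335. Ace is also a capillary endothelial enzyme. Of 12 dendritic cell genes, Ccr7 (-2.05) and Zbtb46 (-1.54) fell, and Ccr7 passed without m335 but not without m350. Of 6 thymus genes tested, none passed with edgeR, 5 were lower at an unadjusted p under 0.05, and DESeq2 called 5 lower.

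Interferon response genes fell in 8 of 22 (36.4%), with a median of -1.23. Ifit2 went from 8.99, 14.6 and 16.3 CPM to 2.01, 3.03 and 2.04 CPM (-2.47 ± 0.39). Oasl2 fell by 1.66 and Bst2, which tethers virus particles to cells, by 1.23. The count was 1 without m335, 0 without m350 and 11 without m368. Of 13 MHC class I genes, 2 fell (15.4%), H2-Q7 (-1.43) and the regulator Nlrc5 (-1.32), neither of them without m335. No MHC class II gene of 10 passed with edgeR, 1 was higher at an unadjusted p under 0.05, and DESeq2 called 0. Of 18 immune checkpoint genes, Nectin2 rose (1.46) and Vsir fell (-1.48), neither of them without m335 or without m350. Each is 5.56% of the list, against 3.04% higher and 4.92% lower among all genes. Cd274, which encodes PD-L1, had 10.3, 41.2 and 25 CPM in normal lung and 5.4, 17.2 and 15.6 CPM in the tumors (-0.96 ± 0.27, adjusted p = 0.0771). Among 19 genes of NF-kB and STAT3 inflammation none passed with edgeR, 2 were higher and 3 lower at an unadjusted p under 0.05, and DESeq2 called 3 higher and 2 lower. Lcn2, a siderophore-binding protein of this list, had 545, 1630 and 379 CPM in normal lung and 925, 1520 and 890 CPM in the tumors (0.64 ± 0.31, adjusted p = 0.28).

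**Figure D5:**
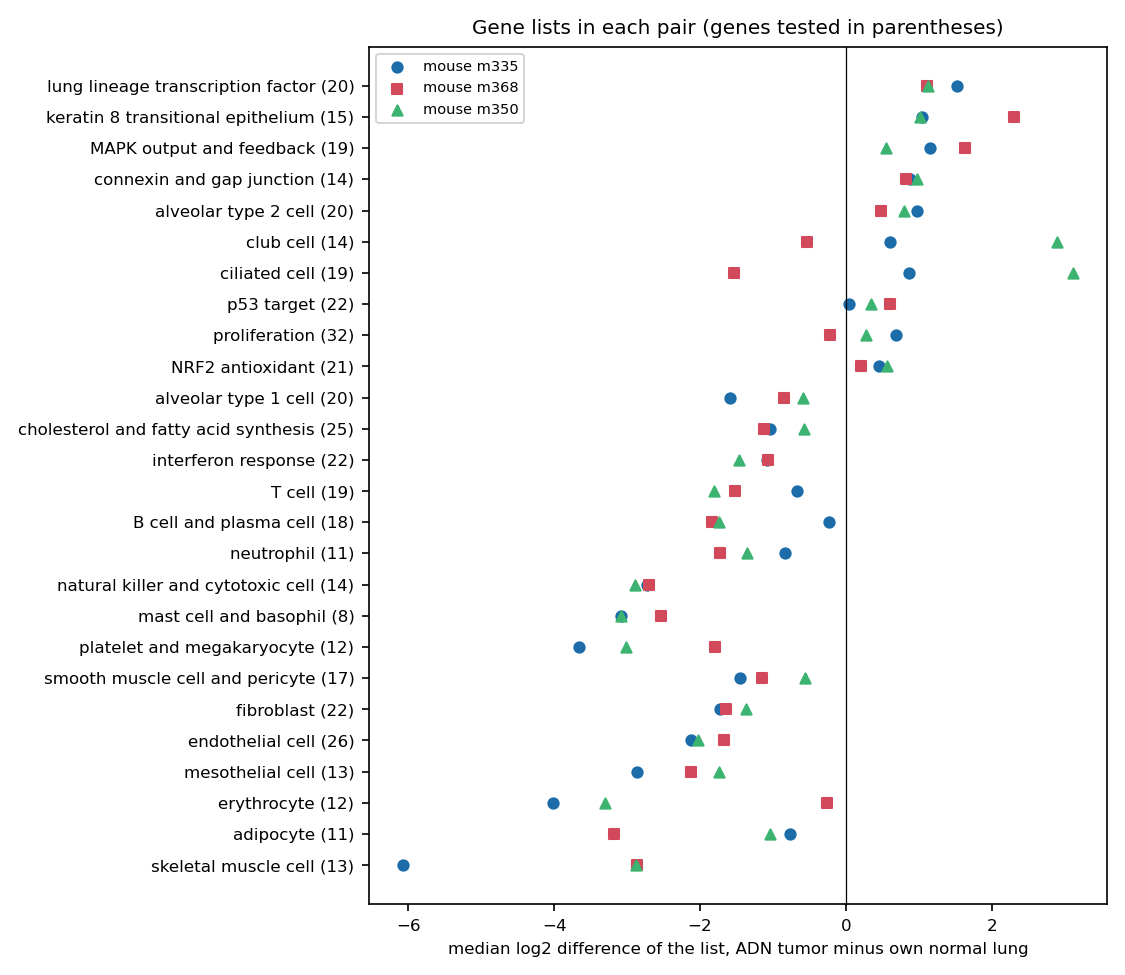
Median log2 difference, ADN tumor minus own normal lung, over the tested genes of 26 lists, with a point for each mouse and the number of genes tested in parentheses. Endothelial, fibroblast and natural killer medians are close in the 3 mice (-2.12 to -1.67 for endothelium), while ciliated medians run from -1.54 to 3.12.

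Of 32 proliferation genes tested, 1 rose (3.12%, against 3.04% of all genes), Ube2c (1.26 ± 0.30, adjusted p = 0.0488). It did not pass without m335, without m350 or with library totals. Mki67, the standard marker of cycling cells, had 11.7, 19.1 and 17.1 CPM in normal lung and 28.2, 18.1 and 20.6 CPM in the tumors (0.48 ± 0.33, adjusted p = 0.457), with overlapping groups. Cdkn2a, a tumor suppressor locus that activated oncogenes induce, rose from 1.97, 1.83 and 1.85 CPM to 18.5, 13.5 and 7.8 CPM (2.73 ± 0.41, adjusted p = 0.0127). It was 1 of 10 cell cycle inhibitors that did, and Cdkn2d fell (-1.73). Cdkn2a did not pass without m335. Of 22 p53 target genes, 4 rose (18.2%), Zmat3 (1.46), Ccng1 (1.16), Gdf15 (1.69) and Eda2r (1.98). Zmat3 went from 26.3, 29.7 and 23 CPM to 76.9, 86.3 and 56.4 CPM. None of the 4 passed without m335 or without m350. With library totals as the scale, 2 of the list were higher and 3 lower, and the median of 0.27 became 0.04. No DNA repair gene of 20 passed with edgeR, none had an unadjusted p under 0.05, and DESeq2 called 0.

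Of 25 genes of xenobiotic metabolism, 6 fell (24%) and 1 rose (4%, against 3.04% of all genes). Cyp4b1, a lung P450, went from 465, 284 and 450 CPM to 45.1, 76.4 and 82 CPM (-2.57 ± 0.34). Fmo1, a flavin monooxygenase, went from 150, 172 and 215 CPM to 11.5, 34 and 30.8 CPM (-2.94 ± 0.33). Cyp1b1, a P450 that activates polycyclic carcinogens, was the gene that rose, from 2.64, 6.29 and 3.58 CPM to 18.9, 53.7 and 11.8 CPM (2.56 ± 0.36, adjusted p = 0.0104). Cyp4b1 and Fmo1 passed without each mouse, and Cyp1b1 did not pass without m335, where 3 of the list were lower. Cyp1a1 had 30.1, 11 and 15.8 CPM in normal lung and 0.571, 3.1 and 0.0364 CPM in the tumors (-4.83 ± 1.21, adjusted p = 0.0671). Its groups did not overlap. It missed the threshold here, and also without m335 (adjusted p = 0.383) and without m350 (0.0796). The same held without the mouse block (0.0761), with RLE size factors (0.0665) and without the filter on low counts (0.176). It passed with library totals as the scale (adjusted p = 0.0437), without m368 (0.00487), in the fit of all 11 libraries (0.0363) and with DESeq2 (4.09e-08). Of 21 antioxidant genes controlled by NRF2, 4 rose (19%), Gsta4 (2.04), Aox1 (1.53), Me1 (1.62) and Gpx2 (1.68). Only Gsta4 passed without m335.

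The pathway to cholesterol and fatty acids had 9 of 25 genes lower (36%), with a median of -1. Sqle, an early oxygenase of sterol synthesis, went from 34.6, 80.1 and 44.2 CPM to 6.34, 23 and 20.1 CPM (-1.79 ± 0.31, adjusted p = 0.0175). Idi1 fell by 1.69 and Fdps by 1.52. No gene of the list passed as lower without m335, 4 did without m350 and 10 without m368. Of 24 genes of glycolysis and hypoxia, 2 rose (8.33%) and 3 fell (12.5%). Hk2, a hexokinase, rose from 25.2, 36.2 and 16.7 CPM to 84.4, 286 and 49 CPM (2.09 ± 0.34), while Epas1, which encodes the endothelial and type 2 cell factor HIF-2 alpha, fell from 2690, 1630 and 2550 CPM to 699, 637 and 824 CPM (-1.64 ± 0.24). Neither passed without m335. Of 20 oxidative phosphorylation genes none passed with edgeR, 1 was higher at an unadjusted p under 0.05, and DESeq2 called 0.

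Of 17 regulators and markers of epithelial to mesenchymal transition, 3 rose (17.6%) and 2 fell (11.8%). Those that rose are epithelial, among them Epcam, from 55.6, 45.8 and 43.2 CPM to 219, 86.1 and 145 CPM (1.55 ± 0.29), and the splicing factor Esrp1 (1.84 ± 0.29). Those that fell are the mesenchymal factors Zeb1 (-1.48) and Zeb2 (-1.37), which overlap genes on the opposite strand. None of these genes passed without m335 or without m350. Matrix genes fell in 7 of 28 (25%) and rose in 2 (7.14%). Tnxb, which organizes collagen, went from 195, 73.8 and 70 CPM to 16.4, 20.5 and 16.4 CPM (-2.49 ± 0.38), and passed without each mouse, as the 1 matrix gene lower without m335. Of 23 proteases and inhibitors, 1 rose (4.35%, against 3.04% of all genes), the lysosomal Ctsh, which processes surfactant protein B, from 257, 309 and 238 CPM to 2340, 1690 and 1220 CPM (2.66 ± 0.28, adjusted p = 0.00596). It passed without each mouse. Mmp28 (-2.26), Adamts8 (-2.75) and Mmp9 (-1.79) fell, none of them without m335. Of 26 integrins and laminins, 2 rose (7.69%), Itga9 (2.13 ± 0.36) among them, and 4 fell (15.4%), among them Itga8 (-2.68), an integrin of fibroblasts. Itga8 passed without each mouse, and without m335 1 gene of the list was higher and 1 lower.

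Of 33 Wnt pathway genes, 8 fell (24.2%) and 2 rose (6.06%). The ligand Wnt2, which lung fibroblasts make, went from 31, 28.5 and 27.1 CPM to 1.58, 7.9 and 3.46 CPM (-3.01 ± 0.50). The ligand Wnt3a fell by 2.88 and the nuclear factor Lef1 by 2.89. Dkk2, a secreted inhibitor of Wnt receptors, rose from 0.583, 0.427 and 0.334 CPM to 12.2, 98 and 6.23 CPM (5.48 ± 0.82, adjusted p = 0.0151). No gene of the list passed without m335. Of 33 TGF-beta and BMP genes, 8 fell (24.2%), among them the endothelial co-receptor Eng (-2.36) and the latent TGF-beta binding proteins Ltbp4 (-2.14) and Ltbp1 (-1.74), and 2 rose (6.06%). Inhbb, an activin subunit, rose from 51.3, 27.4 and 20.7 CPM to 182, 109 and 83.8 CPM (1.95 ± 0.23) and passed without each mouse. Without m335, 1 gene of this list was higher and 1 lower. Notch genes fell in 5 of 15 (33.3%), among them the endothelial receptor Notch4 (-1.78), the ligand Dll1 (-1.60) and the target Hey1 (-1.51), none of them without m335. Of 18 tested genes of the Gprc5 family and retinoid signaling, Gprc5c (1.56) and the retinol carrier Rbp4 (2.38) rose and the retinoic acid hydroxylase Cyp26b1 fell (-2.90). Rbp4 went from 7.6, 17.6 and 7.19 CPM to 57, 72.5 and 32.9 CPM. Rbp4 and Cyp26b1 passed without each mouse, though the groups overlapped for Cyp26b1.

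Apart from Gja3, Ncr1 and Gp9, 3 genes had no count in one group and at least 30 in each library of the other. Cyp2c40 had 5.04, 6.56 and 4.48 CPM in the tumors, at least a 182-fold rise, but it belongs to a cluster of near-identical P450 genes and the assignment of its reads is uncertain. Cox8b, a respiratory chain subunit of heart, muscle and brown fat, had 6.52, 10.2 and 2.12 CPM in the normal lungs, at least a 178-fold fall. The fall of 3425401B19Rik was at least 60.1-fold. The platelet receptor subunit Gp9 fell at least 81-fold. Cyp2c40 and Cox8b passed without each mouse, and the other pair did not pass without m335.

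The ADC tumors served to show where the ADN tumors differ from other tumors of the series. A direct test over all 11 libraries called 1 of 15764 genes (0.00634%), and 1048 genes (6.65%) had an unadjusted p under 0.05. The gene was Apoa1, with 96.3, 374 and 3.31 CPM in the ADN tumors of m335, m368 and m350 and 0, 0.0927 and 0.119 CPM in the ADC tumors of m335, m372 and m378, on the scale of all libraries (ADC minus ADN -11.58 ± 0.94, adjusted p = 0.0232). The 5 normal lungs had 0.031 to 0.228 CPM. Each ADN tumor was above all ADC tumors and all normal lungs, and the tumor of m350 was far below those of m335 and m368. Itih2 (-5.29, adjusted p = 0.0579) and Hnf4a (-8.01, adjusted p = 0.0718) came nearest to the threshold after it among the genes named. Itih2 had 72.2, 45.6 and 11.3 CPM in the ADN tumors and 1.58, 4.15 and 1.46 CPM in the ADC tumors. Leaving out any 1 ADN tumor, or the ADC tumor of m372 or m378, left no gene called, and leaving out the ADC tumor of m335 left 2. With 3 tumors of each kind, and only m335 carrying both, a gene that misses the threshold is not shown to be alike in them.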

How the data were processed

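RNA from 3 ADN tumors and the normal lungs of the same 3 mice was compared. The authors deposited expected counts per transcript on mm10. STAR 2.4.1d, Bowtie2 2.1.0 and Partek are named in the submitters' processing notes, while their roles, the annotation and the use of strand are not given in these sources. The 36285 transcripts were summed to 24515 genes and rounded to whole counts. Between 78.4% and 86.2% of the values of a library lay within 0.01 of a whole number. The 6 libraries held 28601845 to 33489677 counts, and their number limits the precision.

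The test was edgeR's (4.0.16, R 4.3.3) quasi-likelihood test with TMM scaling, filterByExpr, mouse as a block and Benjamini-Hochberg adjustment at 0.05, with 2 residual degrees of freedom, tested on simulated data. Normal and ADN libraries of one mouse are paired by the mouse id in the labels, and their deviations correlated at 0.278 (m335), 0.0312 (m368) and 0.0867 (m350). Those of normal and ADN libraries of different mice correlated at -0.189 to 0.133, so only m335 stood above that range. ADC and ADN tumors were compared with all 11 libraries in one fit. Alternatives were no block, all 11 libraries, RLE factors, library totals, no filter, DESeq2 1.42.0 and leaving out each mouse. Named genes are the 12 largest rises and falls with at least 5 CPM, the 4 called genes of smallest p in each of 56 lists, genes fixed by name, and genes at 0 counts in one group. Genes outside that rule were named after their values were seen. Some results are not reported here. Promoter windows are RefSeq's. The members and lists were chosen with earlier results of these data known. Gene positions in the table matched RefSeq GRCm38.p6 starts for 14885 of 23558 genes.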

Additional observations from a re-analysis of the deposited data

Results flagged for a closer look

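Apoa1 differed between the ADC and the ADN tumors by the direct test (ADC minus ADN -11.58 ± 0.94 on the log2 scale, adjusted p = 0.0232 by edgeR's quasi-likelihood test). It was higher in 3 of 3 ADN tumors than in any ADC tumor, at 96.3, 374 and 3.31 CPM against 0, 0.0927 and 0.119 CPM. The call was lost when any ADN tumor, or the ADC tumor of m372 or m378, was left out.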

How the results depend on the processing

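Leaving out 1 mouse moved the number of genes called from 1208 to between 226 and 1744, that of genes higher from 461 to between 103 and 689, and that of genes lower from 747 to between 123 and 1055. DESeq2 called 2629 genes, 1018 higher and 1611 lower. With library totals as the scale, 1151 genes were lower, 23.5% of the calls were higher against 38.2%, and the median of all genes was -0.25 against -0.02. With mouse left out as the replicate block, 1096 genes were called, 948 of them the same. A fit of all libraries but the ADC tumor of m335, chosen after seeing the data, called 1998 genes, 789 higher and 1209 lower. The 1208 genes had the same sign in each of these fits wherever they were tested. Plin1 was below the filter without m368. Foxj1 ran from -0.97 (without m350) to 1.5 (without m368) and turned sign in the fit of all 11 libraries (-0.28). Between ADC and ADN tumors, 3 genes were called without the block and 0 to 2 with 1 tumor left out. The medians of glycolysis (0.18 to -0.05), oxidative phosphorylation (0.13 to -0.10) and DNA repair genes (0.04 to -0.19) turned sign with library totals. The cause was not tested. Setting genes at 0 counts to their bound moved no list median.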

Other observations

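A stretch of imprinted genes on chromosome 12, chosen after its values were seen, was higher in the ADN tumors. From Dlk1 to Dio3 it spans 828 kb and holds 76 genes of the table, most of them microRNA genes without counts. Of these, 6 were tested and 5 rose, against 3.04% of all genes tested. As the stretch was chosen for its values, this count is no separate support. In the order m335, m368, m350, Meg3, a noncoding RNA of the maternal allele, went from 4.19, 0.702 and 1.15 CPM to 128, 62 and 18.8 CPM (5.10 ± 0.51, adjusted p = 0.00596 by edgeR). Rian, a maternal noncoding RNA that hosts small nucleolar RNAs, went from 2.3, 1.65 and 2.58 CPM to 211, 51 and 60.7 CPM (5.33 ± 0.46, adjusted p = 0.00596). Dlk1, of the paternal allele, rose by 7.17 ± 0.73, Dio3os by 2.90 ± 0.47 and Mirg by 3.92 ± 0.94 (adjusted p = 0.0499). For each of these 5 genes every tumor was above every normal lung, as was so for 13.4% of all genes tested. Dlk1, Meg3 and Rian passed without each mouse in turn, and Mirg did not pass without m335 or without m350. In the edgeR fit of all 11 libraries, Meg3 (adjusted p = 0.0527) and Mirg (0.1) did not pass. With the ADC tumor of m335 left out of that fit, Meg3 (0.0636), Rian (0.0506) and Mirg (0.0616) did not. Dlk1 passed in both. The ADC tumors of m335, m372 and m378 had 4.01, 0.394 and 95.6 CPM of Meg3 and 4.04, 0.764 and 305 CPM of Rian, on the scale of all libraries. Dio3, which inactivates thyroid hormone, had 0.583, 0.244 and 0.121 CPM in normal lung and 1.01, 4.47 and 2.95 CPM in the tumors (3.21 ± 1.19, adjusted p = 0.16).

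Of 25 listed imprinted genes outside this stretch, 23 were tested, 1 was higher and 1 lower. These counts are close to the shares of all genes tested, 3.04% higher and 4.92% lower. The median was -0.74 against -0.02 over all genes tested. Peg10 rose from 2.08, 2.02 and 3.06 CPM to 22.6, 10.4 and 9.59 CPM (2.48 ± 0.46), and Ndn fell from 18.1, 10.1 and 12.5 CPM to 4.9, 1.77 and 2.48 CPM (-2.24 ± 0.36). H19, of another imprinted region, had 10.5, 9.34 and 4.98 CPM in normal lung and 0.235, 3.53 and 0 CPM in the tumors (-4.41 ± 1.34, adjusted p = 0.109).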
